A study of Homo sapiens with 6 samples.

Results

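The subject is the chromatin around the AP-1 family genes, taken here as FOS, FOSB, FOSL1, FOSL2, JUN, JUNB, JUND, BATF, BATF3 and ATF3, in a myeloma line with and without KDM6A. Accessible regions were counted as theirs when they overlapped the gene body or lay within 50 kb of either end (RefSeq positions, GRCh38). Of 75701 regions formed by merging the peak lists of the 6 libraries, 73 met this rule, around 10 of 20033 protein-coding genes. A region counted as called wherever the library's own list had a peak inside it. It was a promoter region when it came within 1 kb of the annotated start of the gene, and distal otherwise. For FOSL1 and BATF3 the start tables used here hold no entry, so both gene ends were taken; both genes are known to start at their upper-coordinate end.

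AP-1 is a dimer of basic leucine zipper proteins. JUN proteins pair with themselves or with FOS proteins, and the dimer binds short DNA elements, the TRE (also called the AP-1 site) and the related CRE. Many family genes are immediate early genes, transcribed within minutes of a growth or stress signal, and BATF proteins pair with JUN proteins and act with IRF4 in lymphocytes. IRF4 is a factor on which myeloma cells depend.

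The assay was ATAC-seq, which marks open DNA by where the transposase Tn5 can insert sequencing adapters. The cells were ARP1, a human multiple myeloma line, and multiple myeloma is a cancer of plasma cells. Libraries labelled KDM6A knock out (3) were compared with libraries labelled KDM6A wild type (3). KDM6A is a histone H3 demethylase that acts on the Polycomb mark H3K27me3, and the stated aim is to learn how it regulates DNA accessibility. The labels call the libraries biological replicates without naming cultures, do not say how the knockout was made or whether the knockout line is 1 clone, and name no treatment, so the tests measure the spread between these libraries. A peak list does not show whether the KDM6A coding sequence was edited, and the genotype labels were not checked.

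Knockout lists were shorter than wild-type lists. They held 33055 to 37314 peaks, against 54443 to 56048 in the wild type. Read depth is unknown. Background pileup, the number of overlapping fragments expected at a position, was recovered from the steps of the fold values by an assumed formula and averaged 2.31 ± 0.26 in knockout libraries and 3.52 ± 0.36 in wild-type libraries (SD, n = 3 each). The lowest fold listed averaged 3.23 ± 0.12 in knockout lists and 2.81 ± 0.10 in wild-type lists. Promoters of plasma cell genes fixed as markers were called in all 6 lists for 8 of 9 genes, and that of SLAMF7 in the 3 wild-type lists alone. Over all protein-coding genes 55.9% were called in all 6 lists. None of the myeloid (3), erythroid (2) and epithelial (3) markers was called in any list. Of B-cell markers PAX5 was called in 2 knockout and 3 wild-type lists and MS4A1 in none, and of 3 T-cell markers CD3E, taken by its gene ends, was called in all 6.

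The promoter sequences below are those of starts with a region in every list (JUN, JUND, FOS) and of starts without one (BATF, ATF3). Each is the 250 bases before the annotated start (RefSeq, GRCh38.p14), read 5′ to 3′ on the strand of the gene. Capitals mark matches to the CRE TGACGTCA, its core TGACGT, or TGACATCA, the variant known from the JUN promoter. JUND was added after its values were seen.
JUN: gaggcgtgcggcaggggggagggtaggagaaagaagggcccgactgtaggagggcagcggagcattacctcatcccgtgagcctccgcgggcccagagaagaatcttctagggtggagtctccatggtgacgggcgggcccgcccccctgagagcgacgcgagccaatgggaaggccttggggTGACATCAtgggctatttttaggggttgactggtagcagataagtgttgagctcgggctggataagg
JUND: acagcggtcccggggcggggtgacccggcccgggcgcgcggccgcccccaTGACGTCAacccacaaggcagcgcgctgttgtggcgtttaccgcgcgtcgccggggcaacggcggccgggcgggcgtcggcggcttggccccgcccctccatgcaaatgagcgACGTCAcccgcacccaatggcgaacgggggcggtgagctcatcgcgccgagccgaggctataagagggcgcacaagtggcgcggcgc
FOS: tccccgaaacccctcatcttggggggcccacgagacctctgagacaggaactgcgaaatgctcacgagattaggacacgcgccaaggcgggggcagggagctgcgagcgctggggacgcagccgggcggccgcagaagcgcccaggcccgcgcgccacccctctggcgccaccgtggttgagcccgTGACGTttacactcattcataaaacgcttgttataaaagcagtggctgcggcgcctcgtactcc
BATF: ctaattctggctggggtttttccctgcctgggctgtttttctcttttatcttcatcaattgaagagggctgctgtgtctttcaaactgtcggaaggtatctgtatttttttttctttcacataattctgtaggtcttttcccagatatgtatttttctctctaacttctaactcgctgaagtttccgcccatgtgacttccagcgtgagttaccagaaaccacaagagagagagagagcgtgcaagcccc
ATF3 first start: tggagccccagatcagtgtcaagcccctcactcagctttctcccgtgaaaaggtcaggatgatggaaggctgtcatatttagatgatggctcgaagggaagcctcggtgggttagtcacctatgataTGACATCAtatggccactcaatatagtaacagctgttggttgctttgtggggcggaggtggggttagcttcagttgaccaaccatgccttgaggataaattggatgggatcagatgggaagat
ATF3 second start: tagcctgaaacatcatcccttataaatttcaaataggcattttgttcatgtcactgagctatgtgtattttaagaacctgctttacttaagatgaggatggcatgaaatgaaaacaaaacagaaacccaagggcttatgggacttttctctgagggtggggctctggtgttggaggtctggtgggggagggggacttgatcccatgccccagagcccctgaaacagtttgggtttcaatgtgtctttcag

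These windows lie at chr1:58784048-58784297 (minus strand) for JUN, chr19:18281623-18281872 (minus strand) for JUND, chr14:75278578-75278827 for FOS and chr14:75522219-75522468 for BATF. The ATF3 windows lie at chr1:212565157-212565406 and chr1:212614768-212615017. The GC content of the JUND window was 74.8%, that of FOS 64.8% and that of JUN 62%, the last equal to the median of 22198 coding windows. BATF had 43.2% and the ATF3 windows 49.2% and 44.8%. CpG dinucleotides numbered 40 in JUND, 25 in FOS and 14 in JUN, against 5 in BATF and 4 and 0 in the ATF3 windows.

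Both strands of the 9 windows of the 8 genes in the start table were searched. The TRE, TGANTCA, occurred in none of the 9, and in 5.36% of all coding windows. JUND alone held a full CRE, which 2.01% of all windows hold. The core TGACGT was in the windows of FOS, FOSB, FOSL2 and JUND, and in 7.996% of all windows, and every full CRE also counts as a core on each strand. It began 64 bases before the start of FOS, 60 before that of FOSB and 66 before that of FOSL2. TGACATCA was in the windows of JUN, 67 bases before the start, and of the first ATF3 start, 123 bases before it, and in 1.95% of all windows. A match is a stretch of letters and not a measured binding site.

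Most AP-1 promoters were open in both genotypes. Of the 10 genes, 8 had a promoter region in all 6 lists, compared with 55.9% of all protein-coding genes. The exceptions were BATF, called in 1 knockout and 3 wild-type lists, and ATF3, with no region within 1 kb of either annotated start in any list. Counting both ends of FOSL1, there were 10 promoter regions, of which 9 were called in all 6 lists; none was WT-only (in each wild-type list and no knockout list) and none KO-only (the converse). Over all promoter regions of the genome 1.91% of those called in every wild-type list were WT-only, and 0.0490% of those called in every knockout list KO-only.

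Near the 10 genes 47, 58 and 51 regions were called in knockout replicates 1, 2 and 3, against 59, 64 and 59 in wild-type replicates 1, 2 and 3. The groups did not overlap, and the means differed by −8.67 regions (two-sided exact permutation p = 0.1, the smallest that 3 against 3 libraries allow). Over all regions the means were 33491 in knockout libraries and 53311 in wild-type libraries. The share of a library's called regions that lay near AP-1 genes was thus higher in the knockout, at 0.155% against 0.114% (exact permutation p = 0.1). The share of all promoter regions was higher too, at 32.3% against 21.5% (exact permutation p = 0.1). Regions at no coding start had a lower share over the genome, at 67.7% against 78.5% (exact permutation p = 0.1). Those near AP-1 genes had 0.0793% against 0.0663% (exact permutation p = 0.2). The part of promoter content in the higher AP-1 share was not tested. Near AP-1 genes the largest drop in count was at regions with no coding start, with 22, 33 and 25 in the knockout libraries against 34, 38 and 34 in the wild type. Over the genome such regions averaged 22681 in knockout libraries and 41848 in wild-type libraries. Promoters of other genes inside the windows numbered 16 of 16 in each knockout library, against 15, 16 and 15 in the wild type. With every list shortened to its strongest 33055 peaks the direction turned, with a mean of 50.7 regions in knockout libraries and 43.3 in wild-type libraries (exact permutation p = 0.2). The lower count in the knockout is thus a statement about the full lists only.

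**Figure D1:**
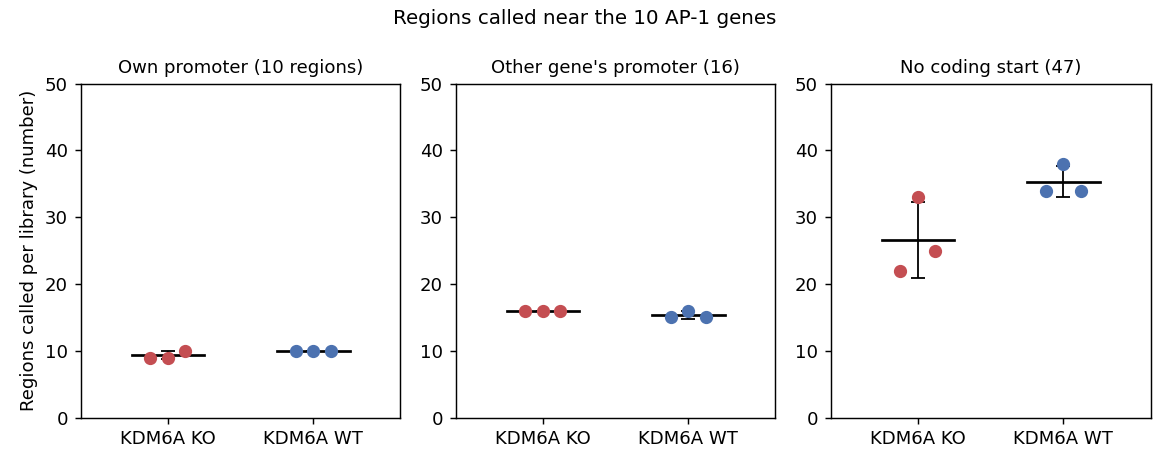
Number of regions called per library (vertical axis) near the 10 AP-1 genes in knockout and wild-type libraries, with own promoters, promoters of other genes and regions at no coding start apart; points are libraries, bars the mean and SD of 3. Own promoters lie at 9 to 10 in every library, and only the regions at no coding start, 22 to 33 in the knockout and 34 to 38 in the wild type, stand apart.

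WT-only regions were few. Of 52 AP-1 regions called in every wild-type list 2 were WT-only, compared with 17.3% of all such regions and 15.3% of those within 50 kb of other coding genes. Of 45 called in every knockout list none was KO-only, compared with 0.390% of all and 0.313% of those within 50 kb of other coding genes. Among regions at no coding start 2 of 28 were WT-only, with 23.1% over the genome, and 0 of 20 KO-only, with 0.635%. Distances below run from the gene start to the centre of a region and are negative upstream. The WT-only region near JUN lay at −22.03 kb from the JUN start, chr1:58805765-58806386, with wild-type folds of 3.42, 4.37 and 3.77. The other lay at −36.1 kb from the FOSL2 start, chr2:28356380-28357113, with wild-type folds of 3.20, 4.13 and 3.77. These summits rested on 15, 17 and 17 fragments at JUN and on 14, 16 and 17 at FOSL2, and the weakest peaks that the knockout lists hold had folds of 3.09 to 3.31. All 3 wild-type folds at JUN and 2 of 3 at FOSL2 lay above these. Fold scales differed, as the median at regions called in all 6 lists averaged 9.19 in knockout and 11.99 in wild-type libraries. This comparison thus cannot tell whether the knockout lists could have held the regions. Leaving out knockout replicate 2 gave 6 WT-only regions (22.4% of all regions called in every wild-type list were then WT-only), leaving out knockout replicate 3 gave 4 (20.8%) and leaving out wild-type replicate 1 gave 4 (21.3%). With lists of equal length there was none among 39 called in every wild-type list, where 7.24% of all such regions were WT-only. The share was 0.437% among such promoter regions and 11.1% among such regions at no coding start.

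**Figure D2:**
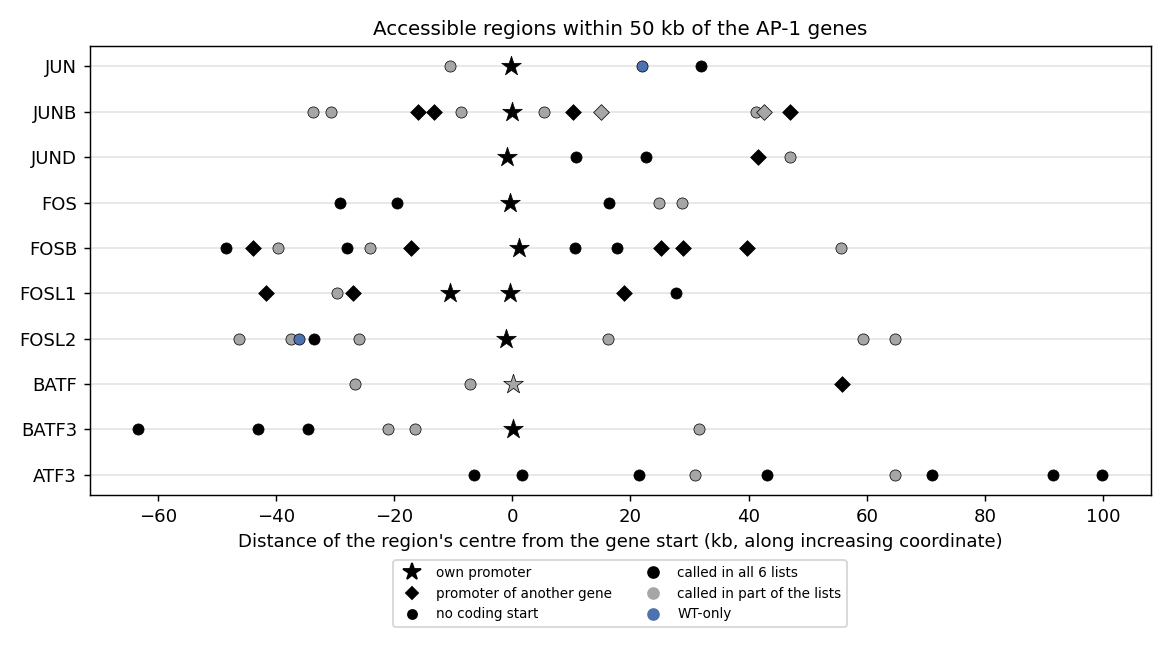
Each symbol is an accessible region, placed by the distance of its centre from the gene start (upper gene end for FOSL1 and BATF3, first start for ATF3) along increasing coordinate, in kb; stars are own promoters, diamonds promoters of other genes, circles regions at no coding start, black called in all 6 lists, grey in part of them, blue WT-only. JUNB, FOSB and FOSL1 lie among other promoters, whereas ATF3 has 7 regions in all 6 lists and no star.

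Among the JUN genes, which encode the obligate partners of FOS proteins, JUN had the highest mean promoter rank of the family in both genotypes. Its region, chr1:58781734-58786096, had folds of 31.6, 35.4 and 30.3 in the knockout libraries, against 27.8, 28.4 and 25.6 in the wild type. Fold is the authors' value for each list, and at regions called in all 6 lists its median was lower in the knockout (9.19 ± 0.58) than in the wild type (11.99 ± 1.03, SD, n = 3 each), so the rank within the list was used beside it. With lists of equal length the JUN promoter stood at percentiles of 98.7, 98.7 and 98.7 of the −log10 p-value in the knockout, against 95.9, 92.8 and 94.3 in the wild type. The groups did not overlap, though little room is left above 98.7. The strongest distal region, at −31.99 kb (chr1:58815066-58817017), had percentiles of 70.3 ± 3.08 in knockout libraries and 70.5 ± 0.86 in the wild type (SD, n = 3 each), which overlapped.

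JUND, a JUN protein made in many resting cells, had a region over the whole gene, chr19:18278503-18282945. Its folds were 29.8, 37.4 and 26.1 in the knockout libraries, against 13.7, 20.4 and 18.6 in the wild type. Percentiles at equal list length were 98.5, 99.0 and 97.6 in knockout libraries and 74.5, 83.8 and 86.0 in wild-type libraries. Every knockout library stood above every wild-type library on both scales, and the mean percentile was 16.9 points higher in the knockout. The region at −10.8 kb, chr19:18291510-18293433, and the promoter of the neighbour LSM4, chr19:18322361-18324029, also had higher percentiles in every knockout library, by 30.7 and 19.98 points.

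JUNB, which can oppose JUN at some targets, had the widest promoter region, 6010 bp at chr19:12788454-12794463, which also holds a start of HOOK2. Its percentiles at equal list length were 86.0, 93.3 and 89.5 in the knockout, against 72.9, 80.5 and 70.3 in the wild type, with no overlap. Folds did overlap, at 14.7, 21.96 and 16.3 in knockout libraries and 13.2, 18.7 and 13.2 in wild-type libraries. The strongest summits lay at 2303, 2175 and 87 bp from the start in knockout libraries and at −1451, 2186 and 2312 bp in wild-type libraries. The gene itself spans 1830 bp, so most of these summits lay outside it. Within 50 kb all the regions called in 6 lists besides the promoter were starts of other genes. The strongest, at HOOK2 (chr19:12774738-12776229), had percentiles of 73.5 ± 2.17 in knockout libraries and 51.0 ± 4.89 in wild-type libraries (SD, n = 3 each). With lists of equal length 3 of the 45 AP-1 regions called in every knockout list were KO-only. All 3 lay in the JUNB window at starts of PRDX2 and THSD8, RTBDN and MAST1. Over the genome 3.82% of regions called in every knockout list were then KO-only, with 1.26% among promoter regions and 5.75% at no coding start.

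FOS, a classic immediate early gene, had a promoter region at chr14:75276991-75280085. Its folds were 13.8, 16.7 and 17.7 in the knockout libraries, against 14.3, 13.9 and 13.4 in the wild type, and these overlapped. In rank the groups stood apart, with percentiles of 83.9, 86.2 and 91.5 in knockout libraries and 76.7, 66.6 and 71.1 in wild-type libraries. Of the distal regions, that at −29.1 kb (chr14:75249169-75250250) had higher percentiles in every knockout library, at 69.9, 64.1 and 65.1, against 44.8, 62.9 and 40.9 in the wild type. The strongest distal region, at −19.4 kb (chr14:75258653-75260128), had 61.4 ± 10.1 in knockout libraries and 59.7 ± 6.50 in wild-type libraries, which overlapped.

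FOSB encodes a close relative of FOS, and its promoter region ranked higher in every knockout library. The region chr19:45467208-45471040 had folds of 18.4, 17.7 and 16.8 in knockout libraries and 10.5, 16.04 and 9.85 in wild-type libraries. Percentiles were 92.0, 88.0 and 90.4 in the knockout, against 60.0, 74.0 and 52.4 in the wild type, a mean difference of 28.0 points with no overlap. The strongest summits lay at −80, 1308 and −5 bp from the start in knockout libraries and at 1608, 1415 and −295 bp in wild-type libraries. These percentiles thus do not all come from summits at the start. Much of the window moved alike. Promoter regions of ERCC1 (19.7 and 34.6 points) and RTN2 (38.2 and 49.9 points) and the distal regions at chr19:45439407-45440763 (34.6 points) and chr19:45485046-45486291 (22.7 points) had higher percentiles in every knockout library. The region 10.7 kb downstream of the start, chr19:45477858-45479479, did not share this, with 63.3, 65.8 and 57.7 in knockout libraries and 70.4, 62.9 and 61.4 in wild-type libraries. Nor did the strongest distal region, at the VASP start, where percentiles were 82.0 ± 7.07 in knockout libraries and 78.6 ± 4.51 in wild-type libraries.

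FOSL1, which encodes the FOS-related protein FRA1, had accessible regions at both ends. At its upper end, chr11:65899219-65900970, percentiles were 46.2, 60.2 and 63.5 in knockout libraries and 57.3, 52.5 and 32.6 in wild-type libraries, and these overlapped. Their mean difference was 9.24 points, and −9.28 points with full lists. The lower-end region, chr11:65887684-65892370, also holds starts of CCDC85B and FIBP, and its summits lay at −3602 to −3430 bp from the lower end of FOSL1, outside the gene. There the percentiles were 93.1, 89.8 and 89.98 in the knockout, against 70.4, 83.4 and 65.7 in the wild type, with no overlap. The lists do not tell FOSL1 from these neighbours there. The strongest distal region, at starts of C11orf68 and DRAP1 (chr11:65918097-65920816), had 94.8 ± 1.11 in knockout libraries and 81.2 ± 5.70 in wild-type libraries (SD, n = 3 each).

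FOSL2, which encodes FRA2, did not separate the genotypes. Its promoter region, chr2:28389498-28394007, had percentiles of 90.9, 93.8 and 92.9 in the knockout, against 90.7, 91.9 and 95.4 in the wild type. Its folds were 17.5, 22.6 and 18.8 in knockout libraries and 21.1, 27.2 and 27.2 in wild-type libraries, again overlapping. Of its 8 distal regions only that at −33.6 kb, chr2:28358581-28360022, was called in all 6 lists, with 67.0 ± 6.18 in knockout libraries and 72.6 ± 6.39 in wild-type libraries (SD, n = 3 each).

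BATF, BATF3 and ATF3 behaved unlike the JUN genes. The BATF promoter region, chr14:75522183-75523083, had a fold of 3.65 in knockout replicate 3 and no peak in the other knockout lists, against 4.91, 5.35 and 5.45 in the wild type. The knockout peak rested on 12 fragments at its summit and the wild-type peaks on 22, 21 and 25. At a −log10 q-value of at least 5, at a fold of at least 4, or without knockout replicate 3, this promoter was WT-only, whereas with lists of equal length it was called in 1 knockout and 1 wild-type list. Only 1 region of its window was called in all 6 lists, at the start of FLVCR2 (chr14:75577627-75578845), with folds of 4.83 ± 0.80 in knockout libraries and 5.60 ± 0.37 in wild-type libraries. JDP2, a repressor of AP-1 whose upper end lies in the BATF window, had its own promoter called in all 6 lists.

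BATF3, known for its need in cross-presenting dendritic cells, was the only member whose promoter ranked lower in every knockout library. The region at its upper end, chr1:212698598-212701371, had percentiles of 69.9, 58.1 and 74.8 in the knockout, against 81.6, 83.0 and 78.5 in the wild type. Its folds were 9.93, 8.85 and 10.7 in knockout libraries and 16.02, 19.9 and 15.5 in wild-type libraries, with no overlap. A distal region 3.0 kb below the gene, chr1:212682870-212683962, was missing from knockout replicate 2 and had folds of 4.21 and 7.02 in the other knockout lists, against 11.1, 12.9 and 11.3 in the wild type.

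ATF3, a stress-induced factor with known alternative promoters, was open inside the gene and not at the 2 annotated starts used here. The strongest of its regions spanned 3111 bp at chr1:212606989-212610099, and its centre lay at −6.47 kb from the second start. Whether this region holds a further ATF3 start, absent from the start table used here, was not tested, so ATF3 cannot be said to lack an open promoter. Percentiles there were 98.0, 96.4 and 94.4 in knockout libraries and 96.8, 95.8 and 95.6 in wild-type libraries, so that the groups overlapped. The region at chr1:212566459-212567777 lay just outside 1 kb of the first start, and with windows of 2 kb it counts as the ATF3 promoter. It had percentiles of 54.5, 74.1 and 71.1 in the knockout, against 74.5, 78.4 and 87.6 in the wild type, all knockout libraries below all wild-type libraries. ATF3 and BATF3 share 3 distal regions between them, and at each of these the groups overlapped, with mean differences of −6.08, −14.1 and −10.03 points.

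**Figure D3:**
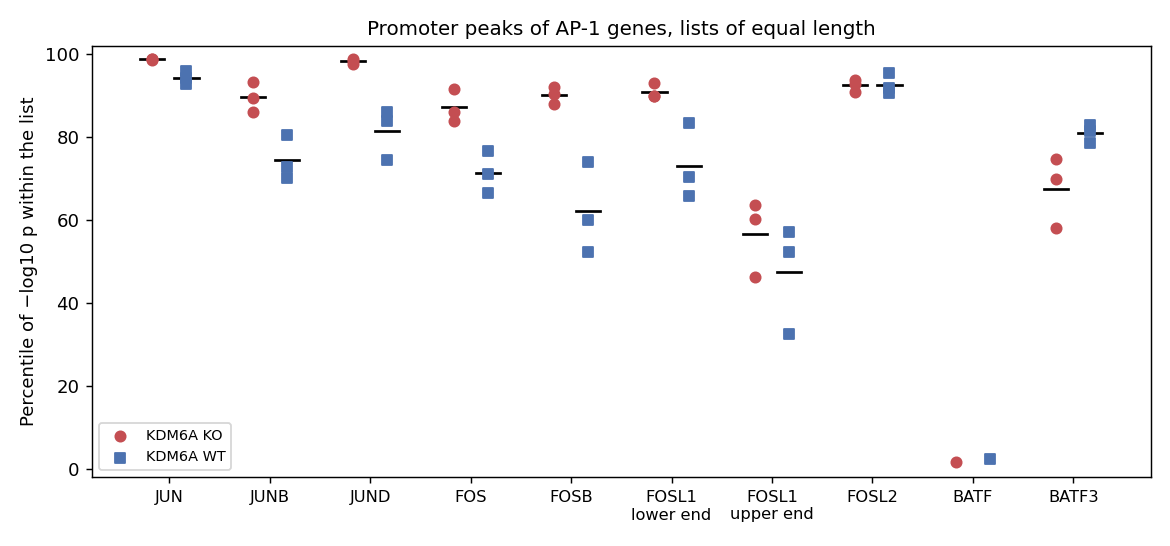
Percentile of each AP-1 promoter peak by −log10 p within its list (vertical axis), all lists shortened to equal length; red circles are the 3 knockout and blue squares the 3 wild-type libraries, and black lines their means where all 3 had a peak. JUN, JUNB, JUND, FOS, FOSB and the lower end of FOSL1 have all knockout points above all wild-type points, BATF3 the reverse, and BATF kept 1 point per genotype.

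Counted together, 6 of the 9 promoter regions called in all 6 equal-length lists had higher percentiles in every knockout library and 1 had lower ones. Over all 9523 such promoter regions 26.0% stood higher in every knockout library and 12.2% lower. One of the 6 is the lower end of FOSL1, which is not its known start; without it, a count added after seeing the data, 5 of 8 stood higher and 1 lower. At JUNB and FOSB the strongest summit lay more than 1 kb from the start in some libraries. Leaving out knockout replicate 1 gave 7 of 9 higher, where 31.4% of all promoter regions did, and leaving out any other library gave 6, where 29.5% to 34.4% did. By rank among the regions called in all 6 full lists the counts were again 6 and 1, where 25.4% and 12.1% of promoter regions stood higher and lower. For all 42 such AP-1 regions they were 22 and 2, with 18.8% and 16.5% over the genome. Of 11 promoter regions of other genes in the AP-1 windows 10 stood higher in every knockout library and none lower. Of 18 regions at no coding start 4 stood higher and 1 lower, with 13.3% and 20.3% over the genome. All 38 AP-1 regions together had 20 higher and 2 lower, with 19.1% and 16.6% of all regions. Shares near these genes differed from those of the genome. Of other promoter regions within 1 Mb, 24 of 31 around FOSB, 27 of 35 around JUND and 13 of 27 around JUNB stood higher in every knockout library. So did 37 of 53 around FOSL1 and 5 of 11 around FOS, and none around these 5 genes stood lower. Around JUN 1 of 4 stood higher, around FOSL2 1 of 11 and around BATF3 0 of 9.

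The differences of JUNB, JUND, FOS, FOSB, FOSL1 and FOSL2 lay within the range of other promoters in their neighbourhood, and those of JUN and BATF3 outside it. The median difference of promoters within 1 Mb was 13.8 points around JUND (35 regions), and 15 of these exceeded the 16.9 points of JUND. Around JUNB the median was 15.6 points (27 regions), above the 15.0 points of JUNB, and around FOS it was 11.1 points (11 regions), below the 15.8 points of FOS. FOSB had 28.0 points and its 31 neighbours a median of 15.1, and 5 of them exceeded FOSB. Around FOSL1 the median was 13.9 points (53 regions). Of these, 16 exceeded its lower end (17.8 points) and 38 its upper end (9.24 points). The FOSL2 difference of −0.10 points lay beside a neighbour median of −0.25 (11 regions). BATF3, at −13.4 points, lay below all its 9 neighbours, whose median was −4.39. Of these 9, 5 also stood lower in every knockout library and 0 higher, and the lowest, RPS6KC1, had −12.7 points. JUN, at 4.38 points, lay above all its 4 neighbours, whose median was 1.24.

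**Figure D4:**
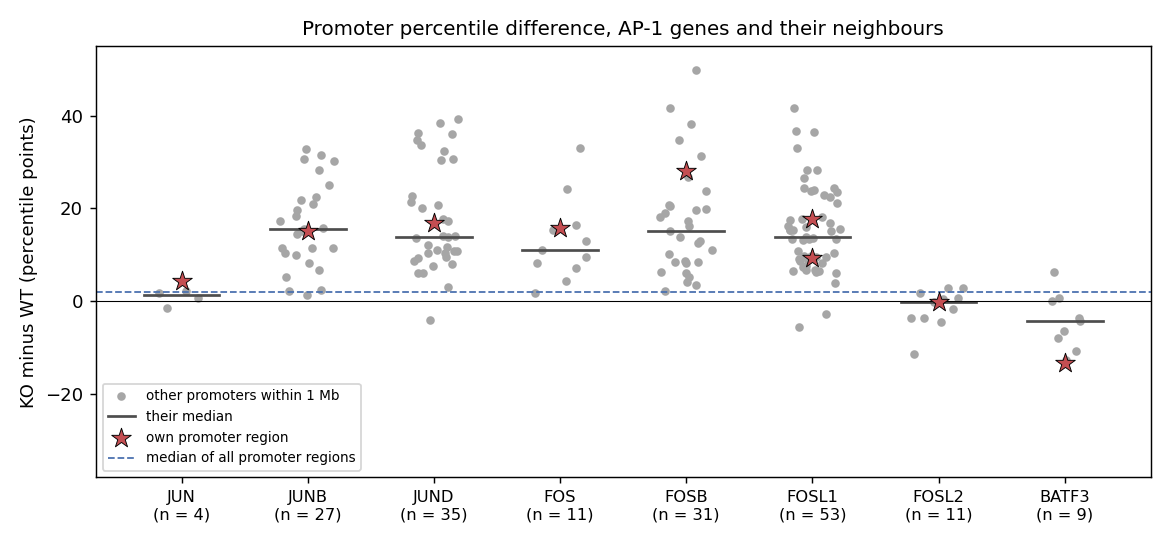
Knockout minus wild-type difference of the promoter percentile (lists of equal length, percentile points) for each AP-1 gene with a promoter in all lists (stars) and for other promoter regions within 1 Mb (grey points, with their median and number). The grey medians lie between 13.8 and 15.6 points for JUNB, JUND, FOSB and FOSL1. They are 11.1 for FOS, 1.24 for JUN, near 0 for FOSL2 and below 0 for BATF3. The stars of JUN, JUND, FOS, FOSB (28.0), BATF3 (−13.4) and the lower end of FOSL1 lie farther from 0 than their own median. Those of JUNB, FOSL2 and the upper end of FOSL1 lie nearer. The dashed line is the median of all promoter regions, 2.07 points.

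Promoter percentiles also differed by chromosome and base composition over the genome. Promoter regions of chromosome 19, which carries JUNB, JUND and FOSB, had a median difference of 11.9 points (568 regions), against 2.07 points over all chromosomes and 0.56 points on chromosome 2, which carries FOSL2. On chromosome 14, with FOS and BATF, the median was 6.87 points. It was 2.02 points on chromosome 1, with JUN and BATF3, and −0.53 points on chromosome 11, with FOSL1. BATF3 (−13.4 points) lay below the lower quartile of chromosome 1 (−2.22). FOSB (28.0 points) lay above the upper quartile of chromosome 19 (19.7) and FOS (15.8 points) above that of chromosome 14 (13.6). Both ends of FOSL1 (17.8 and 9.24 points) lay above that of chromosome 11 (7.44). The median of promoters within 1 Mb of FOSL1, 13.9 points, did so too. JUN, JUNB, JUND and FOSL2 lay between the quartiles of their chromosomes. Promoters in the highest quartile of GC content (72.2% to 92%) had a median of 5.19 points and 34.2% of them stood higher in every knockout library, while in the lowest quartile (30% to 59.6%) the median was −0.30 points and 17.5% did. GC content was 74.8% in JUND, 70.8% in JUNB, 69.6% in FOSL2, 65.6% in FOSB, 64.8% in FOS and 62% in JUN. In the same order their differences were 16.9, 15.0, −0.10, 28.0, 15.8 and 4.38 points. The part of neighbourhood, GC content and library depth in the AP-1 differences was not tested.

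Most AP-1 promoter regions were wide. The peaks of a single library covered 3538 to 4150 bp at JUN and 3713 to 4351 bp at JUND in the knockout, against 4210 to 4299 bp and 3714 to 4282 bp in the wild type. Over all promoter regions called in all 6 lists the median was 1191 to 1326 bp in the knockout libraries and 1510 to 1547 bp in the wild-type libraries. The JUN, JUNB, JUND, FOSB and FOSL2 regions and the lower end of FOSL1 exceeded the 90th percentile of their library in all 6 libraries. The upper end of FOSL1, its known start, covered 764 to 1241 bp in the knockout and 787 to 1535 bp in the wild type, below the median of its own library in all 6. At BATF the covered length was 422 bp in knockout replicate 3 and 680 to 901 bp in the wild type.

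Genes that act with AP-1 were mostly open at their promoters in both genotypes. Of 62 such genes, in 4 lists, 51 had a promoter region in all 6 lists, 1 was WT-only, none KO-only, 4 were called in some lists and 6 in no list. The share called in all 6 lists was 82.3%, against 55.9% of all protein-coding genes. All 16 immediate early and feedback genes, such as EGR1, IER2 and DUSP1, were called in all 6 lists. So were 12 of 13 other leucine zipper partners and competitors, the exception being BATF2, with no call. Among 20 upstream kinases and regulators 18 were called in all 6. MAP2K4, a kinase that activates JNK, which phosphorylates JUN, had the WT-only promoter, with folds of 4.48, 3.65 and 5.66 at chr17:12020709-12021310. MAP2K6, a kinase of the p38 branch, was called in 2 knockout lists (folds 6.88 and 4.49) and in 3 wild-type lists (11.5 ± 2.69, SD, n = 3). Of 13 textbook AP-1 targets 5 were called in all 6 lists, and MMP3, MMP9, IL2, CXCL8 and GSTP1 in none. Their share in all 6 lists, 38.5%, was below that of all protein-coding genes. CD44, an adhesion receptor among these targets, had a fold of 3.91 in knockout replicate 1 alone, against 10.6 ± 1.55 in the wild type (SD, n = 3), and MMP1 and PLAU were called in at most 1 list per genotype. Over all protein-coding genes 162 of 20033 had a WT-only and 5 a KO-only promoter.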

How the data were processed

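ATAC-seq libraries from ARP1 cells, 3 knockout and 3 wild type, were grouped by their titles. The tool names Bowtie2, Trimmomatic, MultiQC, FastQC and MACS2 (2.1.2), and the build GRCh38, come from the submitters' processing notes. Their settings, duplicate removal and any Tn5 shift were not given in the sources used here. Reads were 150 bp long per the labels, and read depth is unknown. Peaks were called per library, since each sample has its own deposited list. The deposited columns hold a score, a fold ratio over background, a −log10 q-value and a −log10 p-value, per the layout of the authors' lists; the score was not used.

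Peaks on the primary chromosomes were merged where they shared at least 1 bp, and the strongest peak of a library in a region gave its fold and percentile. Below a fold of 100, all folds of a list were whole multiples of 1 step (tolerance 0.01 of a step), from which background pileup and summit fragments were recovered, taking fold as (pileup + 1) over (background + 1). Percentiles in the report are those with every list shortened to its strongest 33055 peaks, and full lists were an alternative. Gene bodies came from the RefSeq gene table of GRCh38.p14 and starts from its promoter table, with both gene ends where a gene had no entry. Region counts were tested between genotypes by exact two-sided permutation of the labels (20 labellings). Members and gene lists were chosen with earlier results of these data known. Named regions were each promoter region, all WT-only or KO-only regions and the strongest distal region per gene; further regions of the JUND, FOS, FOSB, BATF3 and ATF3 windows were chosen after their values were seen. Same-numbered libraries did not deviate together (correlations of −0.021, 0.015 and −0.184 over 23589 regions), so the numbers were not taken as pairs. The code, in Python 3.11.15 with pandas 2.3.3, was tested on simulated lists with planted calls. The result of 1 marker gene is not reported here.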

Additional observations from a re-analysis of the deposited data

How the results depend on the processing

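The fewer regions called near AP-1 genes in the knockout depended on list length. With lists of equal length the difference in regions per library turned to 7.33 (50.7 for knockout against 43.3 for wild-type libraries), that in distal regions also to 7.33 (41.3 and 34), and that in promoter regions to 0; the count of WT-only regions was then 0 and that of KO-only regions 3 of 45. The WT-only count of 2 became 1 at a −log10 q-value of at least 5 and at a fold of at least 4, both times the BATF promoter and neither of the original regions, 0 with windows of 10 kb and 6 with windows of 100 kb. Leaving out each library in turn gave 2 to 6 WT-only and 0 KO-only regions, a difference of −11.7 to −6.17 regions per library, −11.2 to −5.67 distal and −1 to −0.5 promoter regions. The direction of these 3 differences held in every other alternative run. Same-numbered libraries did not deviate together; with the replicate block the difference of −8.67 regions had an exact p of 0.25, the smallest that 3 pairs allow. With full lists 4 of 9 promoters stood higher in every knockout library and 1 lower, where 6.54% of all promoters stood higher and 38.5% lower. With lists of equal length 12.2% of all promoters stood lower. By rank among regions called in all 6 lists, an alternative added after seeing the data, 6 of 9 stood higher.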
